A study of Drosophila melanogaster with 9 samples.

Results

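The genes described here are those of the mitochondrial genome, chosen as every gene whose name in the deposited table begins with mt:. There were 38 of them among the 17199 genes listed, namely 13 protein-coding genes, 22 transfer RNA genes, 2 ribosomal RNA genes and the origin region mt:ori. All 38 lie on the mitochondrial genome in the table and in the annotation. RNA came from the ovaries of 3 fly lines (Drosophila melanogaster), with 3 libraries per line. In the M6stop line a deletion made with CRISPR-Cas9 at the nuclear localization signal of Pcif1 shifted the reading frame, and translation meets an early stop codon. In the F9ΔNLS line the deletion removed the signal and kept the frame, so that 829 amino acids of Pcif1 are made. The line used for comparison, BG02557, has a P-element, P{GT1}, in the first intron of Pcif1. Both edited alleles were made in w1118 flies and then backcrossed to that P-element line for up to 10 generations, so each mutant line is a single selected allele, and the line it is compared with carries an altered Pcif1 gene as well. Whether the 3 lines carry the same mitochondrial genome was not tested. The age of the flies is not given in the sources used here. RNA was taken from 3 pairs of ovaries per line.

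The mitochondrial genome is a small circle of DNA, inherited through the egg, that encodes a few core subunits of the respiratory chain together with the ribosomal and transfer RNAs needed to translate them. Both strands are transcribed into long precursors, and the mRNAs are released when the transfer RNAs between them are cut out. All other respiratory-chain subunits come from nuclear genes. In the fly ovary the nurse cells supply mitochondria to the growing oocyte.

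Each value below is a single value per gene from the authors' deposited table: a mean normalized count over all libraries, a log2 fold change of each mutant line over BG02557, or an adjusted p. No value per library could be tied to a sample, so levels and fold changes carry no SD, and the spread between libraries enters only through the adjusted p of DESeq2. The words rose and fell are used where that adjusted p was under 0.05. The edited gene, listed as CG11399, had log2 values in the authors' deposited table of -2.51 in M6stop (DESeq2 adjusted p listed as 0) and 0.02 in F9ΔNLS (DESeq2 adjusted p = 0.83). Markers of ovarian cells were present in the authors' deposited table, with all 12 germline markers (osk at a mean of 35691 normalized counts and vas at 4170) and all 15 follicle-cell markers (Cp36 at 25573) among the 10662 genes given an adjusted p.

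Of the 38 mitochondrial genes, 15 were given an adjusted p, the 13 protein-coding genes and both ribosomal RNAs. The transfer RNA genes, which span 62 to 72 bases each, had almost no counts, and whether RNAs this short could be counted in these libraries is not known. Of the 22, 20 were listed at a mean of 0 in the authors' deposited table, and mt:tRNA:Lys-CTT (0.487 normalized counts) and mt:tRNA:Tyr-GTA (0.440 normalized counts) were the exceptions. The origin region mt:ori, the A+T-rich stretch from which the genome is replicated, was also listed at 0 over its 4608 bases. These 23 genes have no call in either comparison, and nothing is read from them.

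Per kb of gene length, the 3 cytochrome c oxidase genes had the highest levels of the mitochondrial mRNAs in these ovaries. mt:CoI, the catalytic subunit, ranked 3 among all protein-coding genes by its mean of 98433 normalized counts in the authors' deposited table. Its level per kb computed from the authors' deposited table was 64084 normalized counts, with 53626 for mt:CoIII and 25688 for mt:CoII. Together these 3 genes held 72.4% of the summed mean counts of the 13 protein-coding genes in the authors' deposited table. The 13 genes in turn made up 1.21% of the summed mean counts of all genes that are not ribosomal RNA.

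The ATP synthase subunit mt:ATPase6 and the cytochrome b gene mt:Cyt-b, the core of complex III, followed at 24033 and 21268 normalized counts per kb, computed from the authors' deposited table. The complex I subunits, which form the membrane arm of NADH dehydrogenase, lay lower. On the same scale mt:ND3 had 6089, mt:ND5 4615, mt:ND4 4605 and mt:ND1 3042 normalized counts per kb, from the authors' deposited table. The 7 complex I genes held 9.14% of the protein-coding sum.

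A last set of 4 genes stood well below the others. Levels computed from the authors' deposited table were 662 normalized counts per kb for mt:ND4L, 503 for mt:ND2, 491 for mt:ATPase8 and 383 for mt:ND6, against a median of 303 over all tested genes with a length. The ratio of mt:CoI to mt:ND6 was 167 on this scale. Level did not follow the order along the genome: mt:ND2 and mt:CoI are consecutive protein-coding genes on the plus strand, and mt:CoI was 127 times higher per kb, as was mt:Cyt-b over its neighbour mt:ND6, by 55.6 times, in the authors' deposited table. mt:ATPase8 overlaps mt:ATPase6 by 7 bases and mt:ND4L overlaps mt:ND4 by 1 base, and each pair is known in animals to share an mRNA. Even so, mt:ATPase6 was listed 48.9 times higher per kb than mt:ATPase8, and mt:ND4 6.95 times higher than mt:ND4L, in the authors' deposited table. mt:ATPase8 has 162 bases and mt:ND4L 291, so the split of reads within these pairs is uncertain, and the part that length and overlap play was not tested.

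The mitochondrial ribosomal RNAs remained abundant after ribosomal RNA depletion. mt:lrRNA had 91308 and mt:srRNA 71061 normalized counts per kb, computed from the authors' deposited table. The pair accounted for 0.543% of all ribosomal RNA counts. Ribosomal RNA still held most of the counts: the mean counts summed to 50682000 over all genes and to 18106067 without ribosomal RNA. How much of either was removed by the depletion is not known, so these are levels in the libraries and not in the ovary.

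**Figure D1:**
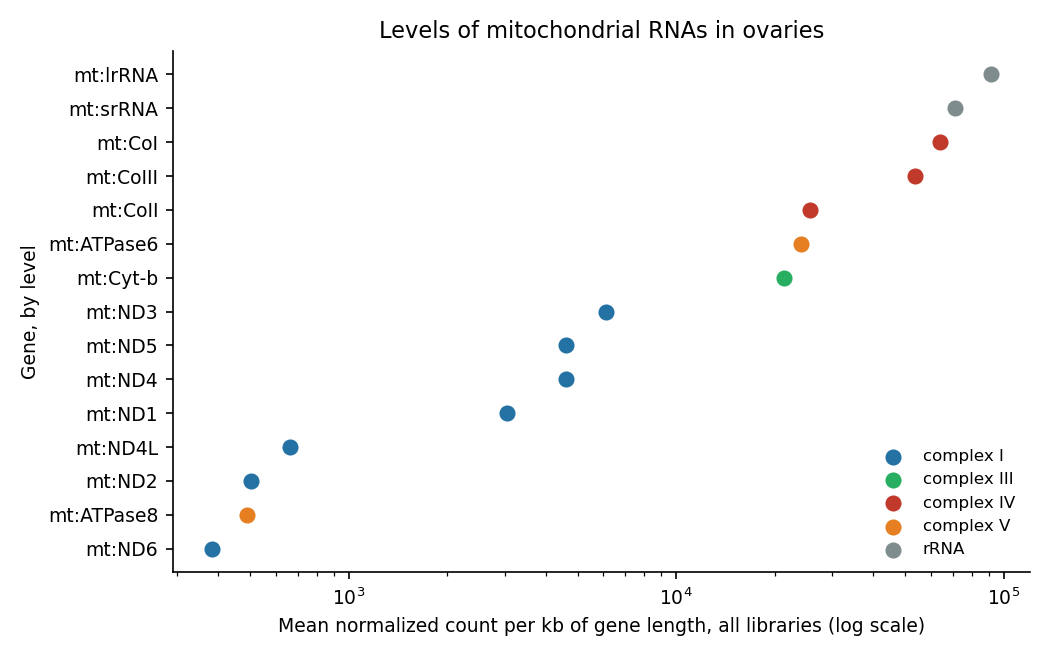
Mean normalized count per kb of gene length over all libraries (horizontal axis, log scale) for the 15 mitochondrial genes given an adjusted p, ordered by level and coloured by respiratory complex or rRNA. The 2 ribosomal RNAs and 3 cytochrome c oxidase genes are at the top, and mt:ND4L, mt:ND2, mt:ATPase8 and mt:ND6 are below 1000.

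In M6stop ovaries 2 of the 15 genes rose against BG02557 and 0 fell, both of the risen genes being complex I subunits. Over all tested genes 5.52% were called in M6stop, 3.48% as rises and 2.04% as falls. With counts this small the members' share is not set apart from that background by any test. mt:ND1, the subunit next to the quinone-binding site (FBgn0013679, mitochondrial genome from 11721 to 12659 on the minus strand, BDGP6.54), rose by 0.39 on the log2 scale in the authors' deposited table (DESeq2 adjusted p = 0.024). mt:ND5, a proton-pumping subunit (FBgn0013684, 6409 to 8125 on the minus strand), rose by 0.28 in the authors' deposited table (DESeq2 adjusted p = 0.029). Neither gene passed at 0.01.

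The other complex I subunits did not pass in M6stop. Their log2 values in the authors' deposited table, each followed by its DESeq2 adjusted p in brackets, were 0.18 for mt:ND3 (0.26), 0.16 for mt:ND4 (0.28), 0.08 for mt:ND6 (0.47), 0.03 for mt:ND4L (0.85) and 0.01 for mt:ND2 (0.96). All 7 complex I values were above 0. Of mt:ND2, mt:ND4 and mt:ND5, the subunits related to ion antiporters, mt:ND5 was the one called.

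No gene of complexes III to V passed in M6stop, and their log2 values in the authors' deposited table lay between 0.11 and 0.13 except that of mt:ATPase8. In the authors' deposited table mt:CoI had a log2 value of 0.12, mt:CoII 0.13 and mt:CoIII 0.12, with DESeq2 adjusted p-values of 0.40, 0.37 and 0.40. With the DESeq2 adjusted p in brackets, mt:Cyt-b had a log2 value of 0.11 (0.42), mt:ATPase6 one of 0.11 (0.42) and mt:ATPase8 one of 0.003 (0.99) in the authors' deposited table. The ribosomal RNAs had log2 values in the authors' deposited table of 0.06 for mt:lrRNA (DESeq2 adjusted p = 0.71) and -8.1e-04 for mt:srRNA (DESeq2 adjusted p = 0.99). mt:ND1 is the nearest protein-coding gene to mt:lrRNA and lies on the same strand, and it rose while mt:lrRNA did not pass.

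Over the 15 genes the median log2 value in M6stop was 0.11, and 14 of them were above 0, in the authors' deposited table. The median of all tested genes was -7.0e-04, with 49.1% above 0. At an unadjusted p under 0.05, rebuilt from the DESeq2 adjusted p-values as an upper bound, at least 4 mitochondrial genes were higher (mt:ND1, mt:ND3, mt:ND4 and mt:ND5) and at least 0 lower. Such counts are minimums, here and below, so at least 0 does not show that no gene passed. By the same bound at least 8.85% of all tested genes were higher in M6stop and 6.13% lower.

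In F9ΔNLS ovaries 1 of the 15 genes rose, mt:ND1 again, and 0 fell. This stood beside a far larger background, since 23.4% of all tested genes were called in F9ΔNLS, 11.6% as rises and 11.9% as falls. mt:ND1 rose by 0.38 in the authors' deposited table (DESeq2 adjusted p = 0.016). The next genes by adjusted p did not pass. With the DESeq2 adjusted p in brackets, their log2 values in the authors' deposited table were 0.22 for mt:ND5 (0.060), 0.24 for mt:ND4 (0.072) and 0.32 for mt:ATPase6 (0.073).

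The rest of the F9ΔNLS values lay further from the threshold. With the DESeq2 adjusted p in brackets, mt:ND3 had a log2 value of 0.25 (0.14) in the authors' deposited table, mt:Cyt-b 0.22 (0.17), mt:CoI 0.16 (0.26), mt:CoII 0.15 (0.31) and mt:CoIII 0.13 (0.40). The genes of lowest level had log2 values, again with the DESeq2 adjusted p in brackets, of 0.05 for mt:ND2 (0.80), 0.03 for mt:ND6 (0.88), 0.01 for mt:ND4L (0.96) and -0.02 for mt:ATPase8 (0.92) in the authors' deposited table. mt:lrRNA had a log2 value in the authors' deposited table of -0.004 (DESeq2 adjusted p = 0.97) and mt:srRNA one of -0.02 (DESeq2 adjusted p = 0.93). The most abundant mitochondrial RNAs by mean count, mt:lrRNA, mt:CoI and mt:srRNA, were thus called in neither line.

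The median of the 15 genes in F9ΔNLS was 0.15, with 12 above 0, in the authors' deposited table, against a median of 0.004 and 51.4% above 0 over all tested genes. At an unadjusted p under 0.05, rebuilt in the same way from the DESeq2 adjusted p-values, at least 5 mitochondrial genes were higher (mt:ND1, mt:ND3, mt:ND4, mt:ND5 and mt:ATPase6) and at least 0 lower. By the same bound at least 17.2% of all tested genes were higher in F9ΔNLS and 17.5% lower. Both comparisons use the same BG02557 libraries, so likeness between the lines is not independent, and the difference between M6stop and F9ΔNLS was not tested.

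**Figure D2:**
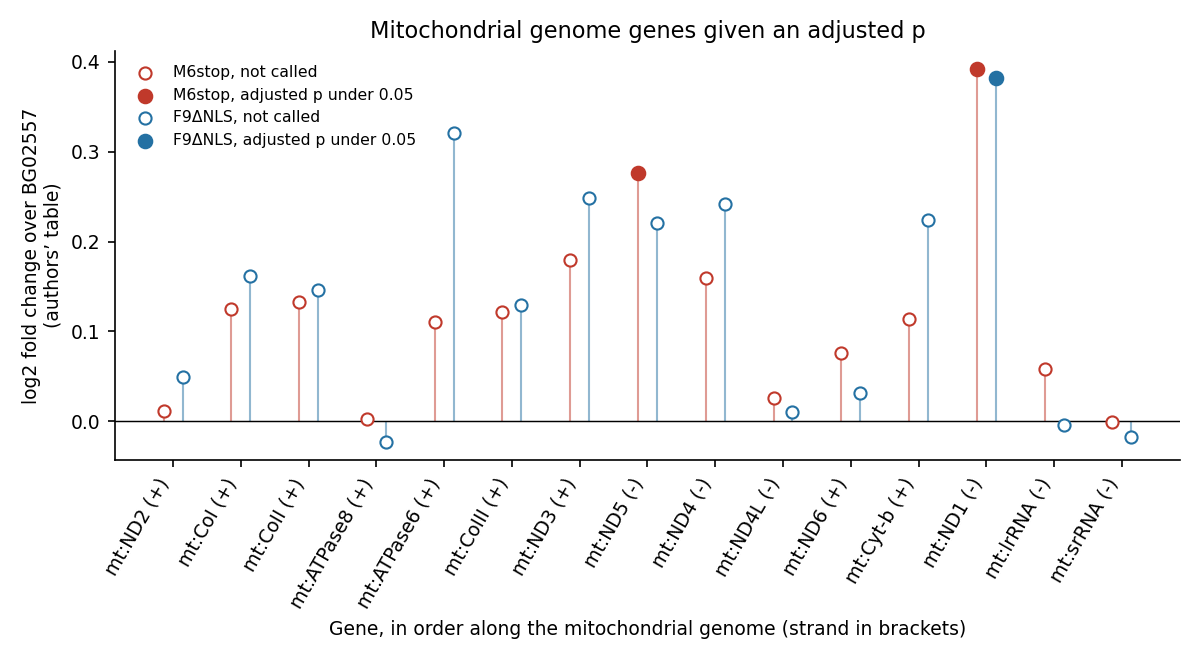
Log2 fold change over BG02557 in the authors' table (vertical axis) for M6stop (red, left) and F9ΔNLS (blue, right), with the 15 mitochondrial genes in their order along the genome and the strand in brackets. Filled points have an adjusted p under 0.05: mt:ND1 in both lines and mt:ND5 in M6stop.

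The genes called were all encoded on the minus strand, which carries 4 of the 13 protein-coding genes and both ribosomal RNAs. Of those 4, mt:ND1, mt:ND5 and mt:ND4 had log2 values of 0.16 to 0.39 in M6stop and 0.22 to 0.38 in F9ΔNLS in the authors' deposited table, while mt:ND4L had 0.03 and 0.01. The 9 plus-strand genes had values of 0.003 to 0.18 in M6stop and -0.02 to 0.32 in F9ΔNLS in the authors' deposited table, with 0 calls by DESeq2 in either line and at least 1 gene in M6stop and 2 in F9ΔNLS at an unadjusted p under 0.05. Of all tested genes 3.48% rose in M6stop and 11.6% rose in F9ΔNLS. With 4 and 9 genes the counts on either strand are not set apart from that background, and the difference between strands was not tested. The strand setting of the read counting is not given in the sources used here, and without it reads of a gene and of the precursor from the other strand cannot be told apart.

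The rarest mRNAs had the listed changes closest to 0. The 9 protein-coding genes whose mean count was 2000 or more had log2 values of 0.11 to 0.39 in M6stop and 0.13 to 0.38 in F9ΔNLS in the authors' deposited table. The other 4 genes, mt:ND2, mt:ND6, mt:ND4L and mt:ATPase8, had values of 0.003 to 0.08 in M6stop and -0.02 to 0.05 in F9ΔNLS in the authors' deposited table. The listed fold changes may have been shrunk toward 0, which would act most where an estimate is uncertain, as with few counts. No source used here says whether they were. Values near 0 in these 4 genes therefore do not show that they stayed level. The ribosomal RNAs had values near 0 as well, at means of 120892 normalized counts for mt:lrRNA and 55854 for mt:srRNA in the authors' deposited table. Abundant genes can also be listed near 0, so these values do not show that the ribosomal RNAs stayed level.

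The 9 abundant mRNAs can be set beside genes of like abundance, with no test of the difference. Of the 2158 tested genes whose mean count was 2000 or more, 4.49% rose in M6stop and 22.2% rose in F9ΔNLS. The 9 mitochondrial mRNAs gave 2 rises in M6stop and 1 in F9ΔNLS. Their median log2 values in the authors' deposited table were 0.13 in M6stop, beside -0.002 for genes of like abundance, and 0.22 in F9ΔNLS, beside 0.04.

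**Figure D3:**
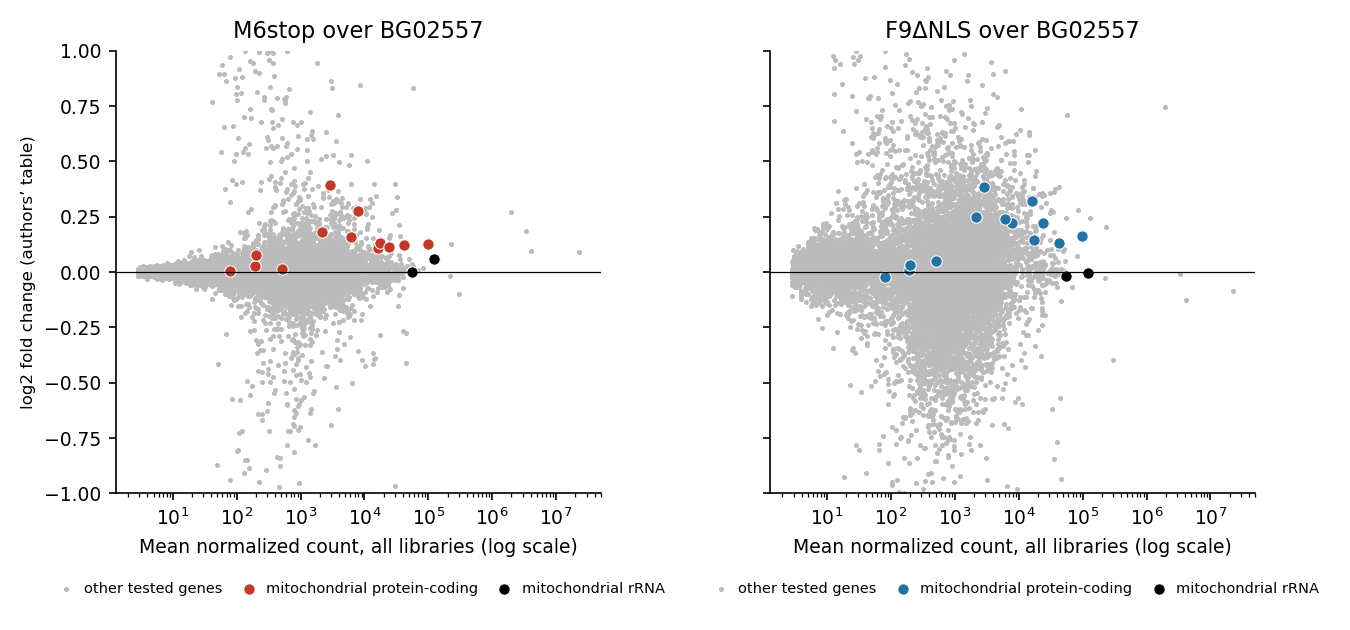
Log2 fold change in the authors' table (vertical axis) against mean normalized count over all libraries (horizontal axis, log scale) for M6stop on the left and F9ΔNLS on the right, with mitochondrial mRNAs in colour, mitochondrial ribosomal RNAs in black and other tested genes in grey (genes beyond 1 or -1 are not drawn). The 9 mRNAs with a mean of 2000 or more lie above 0 in both panels, the 4 rarer mRNAs and the ribosomal RNAs near 0.

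The nuclear-encoded subunits of the same complexes are given beside the mitochondrial ones, with no test of the difference. They were taken by gene symbol, so the sets also hold paralogs with few counts. ND-51L2 and Cyt-c1L, for example, had means of 21.4 and 6.69 normalized counts. Of 74 tested nuclear genes of complexes I to V, 25 rose in M6stop and 31 in F9ΔNLS. By DESeq2 0 fell in either line, with at least 0 lower at an unadjusted p under 0.05. The share of all tested genes that rose was 3.48% in M6stop and 11.6% in F9ΔNLS. In complex I, mitochondrial genes gave 2 rises of 7 in M6stop and 1 in F9ΔNLS, and nuclear genes gave 6 of 35 and 10 of 35. The complex I medians in M6stop were 0.16 for mitochondrial and 0.13 for nuclear genes, and in F9ΔNLS they were 0.22 and 0.15, in the authors' deposited table. Among the nuclear genes ND-39 rose by 0.27 in M6stop and 0.28 in F9ΔNLS, and ND-MNLL by 0.28 in M6stop and 0.14 in F9ΔNLS, in the authors' deposited table.

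In complex IV mitochondrial genes gave 0 calls of 3 by DESeq2 in each line. The upper bounds of their unadjusted DESeq2 p were 0.063 to 0.074 in M6stop and 0.11 to 0.21 in F9ΔNLS. The p-values themselves may be lower than these bounds. The nuclear genes gave 5 rises of 12 in M6stop and 6 in F9ΔNLS. Among the 12, COX5BL, COX4L and COX6AL had means of 3.53, 3.62 and 3.08 normalized counts and were not called. COX7A, cype, COX6B and levy, which encode small accessory subunits, rose by 0.53, 0.45, 0.39 and 0.31 in M6stop and by 0.56, 0.46, 0.42 and 0.27 in F9ΔNLS in the authors' deposited table. In complex V, mt:ATPase6 and mt:ATPase8 gave 0 calls by DESeq2, with at least 0 in M6stop and 1 in F9ΔNLS at an unadjusted p under 0.05, and 9 of 12 nuclear genes rose in each line. ATPsynbeta, a catalytic subunit, rose by 0.34 in M6stop and 0.28 in F9ΔNLS, and ATPsynC, of the membrane ring, by 0.28 in M6stop and 0.36 in F9ΔNLS, in the authors' deposited table. mt:Cyt-b was not called, and 4 of 11 nuclear complex III genes rose in each line, among them UQCR-C1 (0.27 in M6stop and 0.25 in F9ΔNLS) in the authors' deposited table. Complex II has no mitochondrial subunit, and 1 of 4 nuclear genes rose in M6stop and 2 in F9ΔNLS. These counts stand beside rises in 3.48% of all tested genes in M6stop and 11.6% in F9ΔNLS.

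Levels per kb differed between the genomes. Median levels computed from the authors' deposited table were 53626 normalized counts per kb for the mitochondrial and 3369 for the nuclear complex IV genes. For complex I they were 3042 for the mitochondrial and 1478 for the nuclear genes on the same scale, from the authors' deposited table. Both nuclear medians include the paralogs with few counts.

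**Figure D4:**
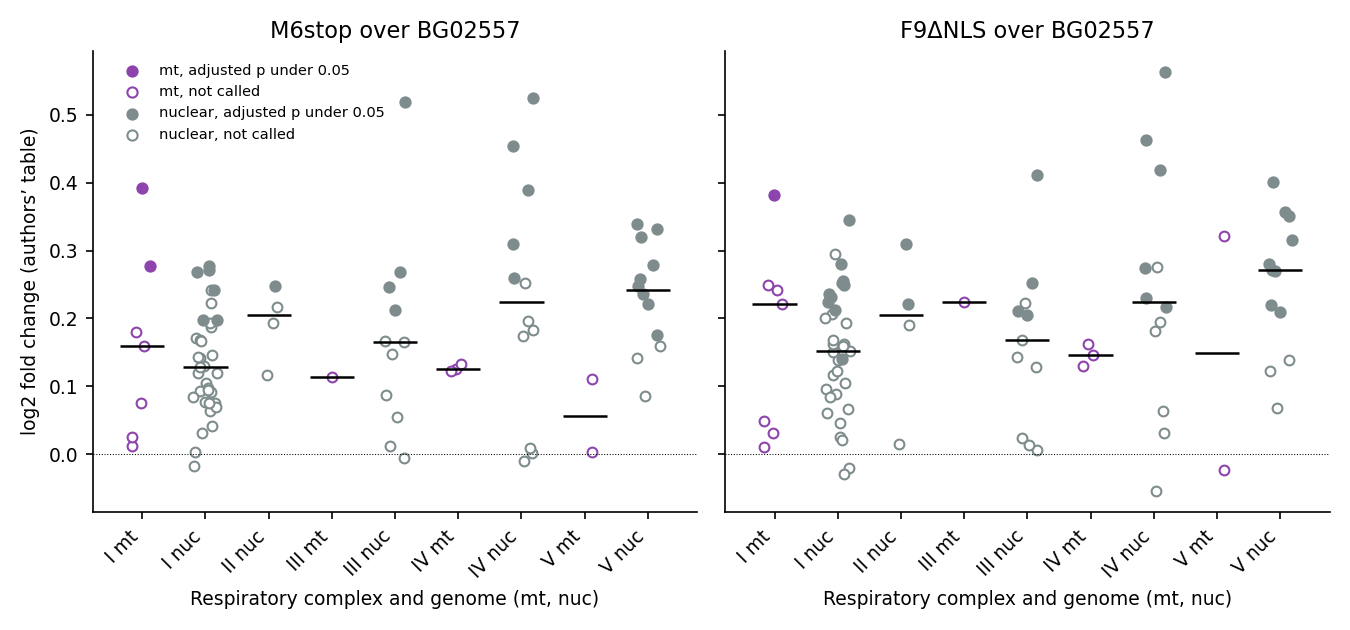
Log2 fold change over BG02557 in the authors' table (vertical axis) for tested genes of respiratory complexes I to V, split into mitochondrial (mt, purple) and nuclear (nuc, grey) genes, with M6stop on the left and F9ΔNLS on the right. Filled points have an adjusted p under 0.05, horizontal bars are medians, and 2 mitochondrial points are filled in M6stop and 1 in F9ΔNLS.

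Nuclear genes listed for the copying and transcription of mitochondrial DNA were called in F9ΔNLS at about the rate of all tested genes. Of 13 such genes 0 were called by DESeq2 in M6stop, with at least 2 higher and 0 lower at an unadjusted p under 0.05. In F9ΔNLS 3 rose and 0 fell, with at least 1 lower at an unadjusted p under 0.05, where 23.4% of all tested genes were called. The risen genes in the authors' deposited table were mtTFB1, a mitochondrial ribosomal RNA methyltransferase (0.28, DESeq2 adjusted p = 2.1e-04), the mitochondrial RNA polymerase gene mtRNApol (0.17, DESeq2 adjusted p = 0.027) and mtSSB, which coats single-stranded mitochondrial DNA (0.22, DESeq2 adjusted p = 0.035). mtTFB2, an initiation factor for that polymerase, had log2 values in the authors' deposited table of 0.23 in M6stop (DESeq2 adjusted p = 0.092) and 0.14 in F9ΔNLS (DESeq2 adjusted p = 0.29). Neither the helicase gene mtDNA-helicase (-0.10 in M6stop and -0.05 in F9ΔNLS) nor DNApol-gamma35, the small subunit of the mitochondrial DNA polymerase (0.10 in M6stop and 0.24 in F9ΔNLS), passed in the authors' deposited table.

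Genes that process and stabilize mitochondrial RNA gave 0 calls of 10 by DESeq2 in M6stop, with at least 1 higher and 1 lower at an unadjusted p under 0.05. In F9ΔNLS 4 rose and 1 fell. Calls over all tested genes were 5.52% in M6stop and 23.4% in F9ΔNLS. bsf, an RNA-binding protein needed for mitochondrial mRNA stability (0.39, DESeq2 adjusted p = 2.1e-05), rswl, a subunit of mitochondrial RNase P (0.30, DESeq2 adjusted p = 0.0043), the helicase gene Suv3 (0.28, DESeq2 adjusted p = 0.015) and Lrpprc2, a relative of bsf (0.21, DESeq2 adjusted p = 0.016), rose in the authors' deposited table. scu, another RNase P subunit with a dehydrogenase activity, fell by 0.17 in F9ΔNLS in the authors' deposited table (DESeq2 adjusted p = 0.031). In M6stop these genes had log2 values of 0.04 for bsf, 0.03 for rswl, -0.01 for Suv3, 0.16 for Lrpprc2 and 0.06 for scu, none of which passed, in the authors' deposited table.

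For translation inside mitochondria, 0 of 9 factor genes were called by DESeq2 in M6stop, with at least 1 higher and 0 lower at an unadjusted p under 0.05, and 3 rose and 0 fell in F9ΔNLS. The elongation factor genes mEFTu1 (0.46), mEFTs (0.31) and mEFG1 (0.20) were the risen genes in the authors' deposited table. Of 75 mitochondrial ribosomal protein genes 1 rose in M6stop, mRpL1 (0.21, DESeq2 adjusted p = 0.029), and 10 rose in F9ΔNLS, with mRpL1 (0.27), mRpL47 (0.39) and mRpS9 (0.21) among them, in the authors' deposited table. Of all tested genes 3.48% rose in M6stop and 11.6% in F9ΔNLS, and no test sets either count apart from that background. The median of the 75 ribosomal protein genes was 0.02 in M6stop and 0.10 in F9ΔNLS, in the authors' deposited table.

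A list of 21 nuclear genes, mostly for mitochondrial import, carriers, dynamics and the citric acid cycle, gave 8 rises and 0 falls in M6stop. In F9ΔNLS it gave 12 rises and 1 fall. The fall was that of scu, which is also in the list of RNA-processing genes above. Rises over all tested genes were 3.48% in M6stop and 11.6% in F9ΔNLS. porin, the outer-membrane channel, rose by 0.16 in M6stop and 0.13 in F9ΔNLS in the authors' deposited table. In M6stop the phosphate carrier gene Mpcp2 rose by 0.25, the chaperonin gene Hsp60A by 0.19, the aconitase gene Acon by 0.30 and l(1)G0156, an isocitrate dehydrogenase subunit, by 0.31 in the authors' deposited table. In F9ΔNLS these 4 genes rose by 0.23, 0.38, 0.37 and 0.40 in the authors' deposited table, and the import channel gene Tom40 rose by 0.33. The median was 0.08 in M6stop and 0.20 in F9ΔNLS, in the authors' deposited table.

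Muscle markers, from cells rich in mitochondria that sheathe the ovary, had calls in both lines as well. Of 27 markers 5 rose and 0 fell in M6stop, and 13 rose and 0 fell in F9ΔNLS, beside the 3.48% and 11.6% of all tested genes that rose in M6stop and F9ΔNLS. At an unadjusted p under 0.05, rebuilt as above from DESeq2, at least 13 markers were higher and 3 lower in M6stop. In F9ΔNLS at least 15 were higher and 0 lower by that bound. The muscle median was 0.08 in M6stop and 0.42 in F9ΔNLS in the authors' deposited table. None of the 27 was listed at 0, and their mean counts sum to 49666 normalized counts. Act57B, an actin gene, rose by 0.71 in M6stop and 0.89 in F9ΔNLS, and the troponin gene TpnC73F by 0.66 in M6stop and 1.07 in F9ΔNLS, in the authors' deposited table. Of 11 fat-body markers 3 rose and 0 fell in each line, and the risen genes were Apoltp, Obp99a and apolpp in M6stop and Fbp1, Fbp2 and Lsp1alpha in F9ΔNLS. apolpp had a log2 value of 1.29 in M6stop and -0.13 in F9ΔNLS, and Fbp1 one of -8.9e-04 in M6stop and 2.61 in F9ΔNLS, in the authors' deposited table. The fat-body median was -0.006 in M6stop and 0.09 in F9ΔNLS in the authors' deposited table. Of the 12 germline markers 0 were called by DESeq2 in M6stop, with at least 0 at an unadjusted p under 0.05. In F9ΔNLS 6 germline markers rose and 1 fell, where 23.4% of all tested genes were called. Of the 15 follicle-cell markers 4 rose and 0 fell in M6stop, the risen genes being Yp1, Yp2, Yp3 and Vm26Ab. The other 11 were not called in M6stop, and which cells the Yp1, Yp2 and Yp3 RNA came from was not tested. In F9ΔNLS 3 rose (Yp2, tj and Fas3) and 2 fell (Vm26Aa and Vm34Ca). The chorion genes Cp15, Cp16, Cp18, Cp19, Cp36 and Cp38 were called in neither line. The part of these cell types in the values of the mitochondrial genes was not tested, and in whole ovaries a change in the share of cells and a change in RNA per cell cannot be told apart.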

How the data were processed

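Total RNA from ovaries was depleted of ribosomal RNA and sequenced as paired-end libraries, per the labels' protocols. The submitters' processing notes name DESeq2 1.25.10, DESeq, R 3.6.3, Salmon 1.3.0 and the build BDGP6, with no role for each. No source used here gives the strand setting or says whether fold changes were shrunk. The authors deposited 1 table. Its mean normalized count is a signal value, and the log2 fold changes and adjusted p-values are theirs, per the file headers. The logarithm was taken to be of base 2, which the headers do not state. A further 9 columns of per-library values carry codes that match no label and were not used, so the edgeR test planned for counts was not run and depth per library is not known.

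From this table (Python 3.11.15, pandas 2.3.3) calls at an adjusted p under 0.05 were counted, and unadjusted p-values were rebuilt as upper bounds taking the authors' adjustment to be that of Benjamini and Hochberg over 10662 genes, so counts at an unadjusted p under 0.05 are minimums. This step was tested on simulated data. Gene lengths (exon union) and positions come from Ensembl release 115 (BDGP6.54), which held 17063 of the 17199 identifiers. Members and gene lists were chosen with earlier results of these data known. Every member given an adjusted p is named, with up to 4 genes per nuclear list of smallest adjusted p in each comparison. Of 123 list entries 3 were not found by name. CG11399 (Pcif1) and the markers osk, vas and Cp36 were added as checks. The fat-body markers that rose and the follicle-cell markers were named after their values were seen. The labels do not say whether the 3 libraries of a line came from separate flies beyond calling them biological replicates.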

Additional observations from a re-analysis of the deposited data

How the results depend on the processing

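The count of mitochondrial genes called was 2 in M6stop and 1 in F9ΔNLS at an adjusted p under 0.05. At 0.01 it was 0 in M6stop and 0 in F9ΔNLS, and at 0.1 it was 2 in M6stop and 4 in F9ΔNLS, by DESeq2. Of all tested genes 5.52% were called in M6stop and 23.4% in F9ΔNLS at 0.05. The shares of all tested genes at 0.01 and 0.1 are not given, so the counts there have no background beside them. Requiring a mean of at least 10 or 50 normalized counts, or a listed log2 change of at least 0.1, left each count at 0.05 as it was. The median log2 value of the members was 0.11 in M6stop and 0.15 in F9ΔNLS. Over the 2 transfer RNA genes with a fold change, both under 1 normalized count on average, it was 5.4e-04 in M6stop and -0.0015 in F9ΔNLS, and the cause was not tested. The other restrictions and centring on all tested genes gave 0.11 to 0.12 in M6stop and 0.13 to 0.16 in F9ΔNLS; leaving out the 5 genes that overlap another was chosen after the data were seen. Refits with edgeR or DESeq2 and fits without a replicate were not run, because no library column could be tied to a sample. No paired analysis was possible because the columns carry no replicate number. Depth per library is unknown, so no limit can be set for genes listed at 0.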
